A study of Rattus norvegicus with 6 samples.

Results

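This account covers 5 genes that move phosphate or pyrophosphate across the cell surface or make pyrophosphate there: Slc20a1, Slc20a2, Xpr1, Ankh and Enpp1. They were taken by symbol from a count table of 18718 genes, and all 5 were present and passed the filter on low counts that left 12268 genes for testing. The measurement was RNA sequencing of HEI-OC1, an established line of auditory cells that came from the cochlea, under 2 conditions. In 3 libraries the cells had received an siRNA against Hnrnpd, which the labels call SiHNRNPD and AUF1 knock down, and in 3 libraries the control siRNA SiNC. Hnrnpd encodes AUF1, a protein that binds AU-rich elements in mRNA. Both groups came from the same line in the same serum-containing medium, and the labels give the organism as rat. The labels give no dose or time of treatment and do not say whether the replicates were separate cultures, so the p-values rest on variation between libraries that may be only technical.

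Cells take up inorganic phosphate with sodium through PiT1 and PiT2, the products of Slc20a1 and Slc20a2, and release it through XPR1, a phosphate exporter that responds to inositol pyrophosphates. Pyrophosphate outside the cell inhibits the growth of mineral: ENPP1 makes it by splitting ATP, ANKH supplies it by letting ATP and citrate out of the cell, and tissue-nonspecific alkaline phosphatase (Alpl) breaks it down. Variants in the human SLC20A2 and XPR1 genes cause familial calcification of the brain, loss of ENPP1 causes arterial calcification in infancy, and ANKH variants cause a bone overgrowth disorder in which hearing can be lost.

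The members were chosen by their symbols with the siHnrnpd against control values of this same comparison known, above all the log2 change and adjusted p of Slc20a2. Their differences between the groups are therefore given as a description with no test of their own. Within the fit across all 12268 genes (edgeR quasi-likelihood test, Benjamini-Hochberg adjustment, called at an adjusted p under 0.05), 1 of the 5 members was called, against 0.0815% of all genes tested. Since the choice of members used this contrast, nothing is read from that share.

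The libraries held 28984535 to 35842904 gene counts. Hnrnpd itself, the siRNA target, was at 62.8% of its control mean in the siHnrnpd libraries, so AUF1 mRNA was lowered and far from removed. Of 12 hair cell markers, 9 were matched. The motor protein gene Myo6 was present at 36.7 ± 4.11 CPM in control (CPM, read counts scaled to library size, SD, n = 3), but Myo7a stood at 0.27 ± 0.19 CPM, and Slc26a5, which encodes the outer hair cell motor prestin, at 0.037 ± 0.064 CPM. Both of these defining hair cell genes were thus near 0, while the fibroblast and bone collagen gene Col1a1 stood at 2093 ± 198 CPM. Other markers on the fibroblast list ranged widely in control. Col3a1 stood at 588 CPM, Pdgfra at 39.7 CPM and Lum at 8.17 CPM, but Col1a2 at 3.16 CPM, Dcn at 0.16 CPM and Postn at 0.20 CPM. Col1a1 had a log2 value of 0.31, siHnrnpd against control. Those of Col3a1, Col1a2, Lum and Pdgfra were 0.036, 0.086, -0.021 and -0.021. Of the 5 tested markers on this list edgeR called 0. The summed level of 7 fibroblast markers, most of it from Col1a1 and Col3a1, ran from 2573 to 2933 CPM in control and from 2953 to 3426 CPM in siHnrnpd. Its part in the differences described here was not tested.

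Slc20a1 was the most abundant member. Per length of transcript, in the authors' FPKM (fragments scaled to gene length and library size), the control means were 55.3 ± 2.61 for Slc20a1, 25.3 ± 0.66 for Enpp1, 9.01 ± 0.61 for Ankh, 8.93 ± 0.51 for Slc20a2 and 0.72 ± 0.23 for Xpr1 (SD, n = 3 each). The ranges over the control libraries were apart for each pair of neighbours in that order except Ankh, at 8.33 to 9.51 FPKM, and Slc20a2, at 8.53 to 9.51 FPKM, which could not be ordered. In the siHnrnpd libraries Slc20a2 ran from 12.86 to 14.14 FPKM and Ankh from 8.29 to 10.45 FPKM, so their ranges no longer overlapped. Among all genes tested, 86.9% had a lower control FPKM than Slc20a1 and 74.6% a lower one than Enpp1. Ankh and Slc20a2 lay near the middle, with 53.7% and 53.6% of genes below them, and Xpr1 near the bottom, with 14.5% below it. These levels rest on rat gene models, as the labels name rat, while the line is usually described as murine. From which species the reads came was not tested. Nor was it tested whether the use of rat models lowered the count of any gene described here as low or near 0.

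**Figure D1:**
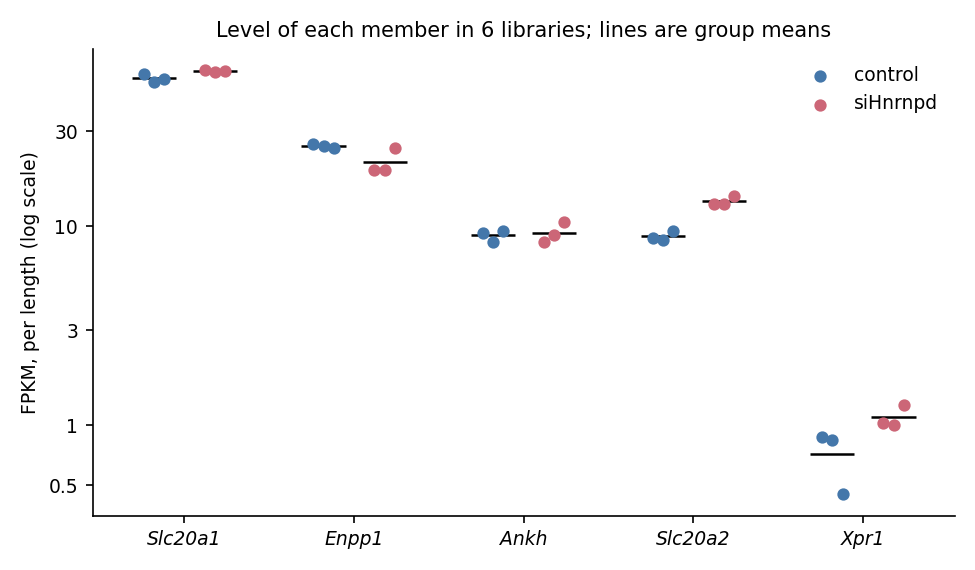
Level of each member in FPKM on a log axis, with a point for each of the 6 libraries and a line at each group mean. Slc20a1 stands highest and Xpr1 lowest in both groups, and Slc20a2 shares the range of Ankh in control but lies above it in siHnrnpd.

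The importers come first. Slc20a2 (ENSRNOG00000019490, chromosome 16) had 1114, 1182 and 1480 counts in controls 1 to 3, or 38.4, 37.9 and 41.0 CPM. In siHnrnpd 1 to 3 it had 1965, 1869 and 1962 counts, or 56.1, 56.4 and 60.1 CPM. All 3 siHnrnpd libraries lay above all 3 controls, and the gap between the groups was wider than the spread within either. In RNA from whole cultures, more cells with the transcript and more of it per cell cannot be told apart. The mean went from 39.1 ± 1.64 to 57.5 ± 2.19 CPM (SD, n = 3 each), a log2 change of 0.56 with an SE of 0.068. This is the value that brought the gene into the set: its unadjusted p ranked 3 among all genes tested, with an edgeR adjusted p of 0.0426. By size of log2 change it ranked 474. The SD of its log2 CPM within groups was 0.057, and 89.8% of the genes tested had a larger one.

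In the main fit the call of Slc20a2 was close to the threshold although its size was steady. No gene tested had a lower edgeR adjusted p than its 0.0426, and Hnrnpd had the same value. Slc20a2 kept its sign in all 16 alternative analyses, with log2 changes from 0.51 to 0.59, but passed in 6 of them. Among those 6 were DESeq2 (DESeq2 adjusted p = 4.43e-07) and edgeR without the filter on low counts (edgeR adjusted p = 0.000917). In the 6 fits that each left out 1 library Slc20a2 passed in 0. Its edgeR adjusted p ran from 0.0611 without siHnrnpd 3 to 0.319 without control 2. Hnrnpd, the siRNA target, passed in 1 of these 6 fits, with edgeR adjusted p from 0.0458 to 0.319. With the replicate number as a block the log2 change of Slc20a2 was 0.56 and its edgeR adjusted p 0.111.

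Slc20a1 (ENSRNOG00000018567, chromosome 3), the other importer gene, differed far less. Its level was 212, 195 and 196 CPM in controls 1 to 3 and 218, 216 and 213 CPM in siHnrnpd 1 to 3. The siHnrnpd libraries were all above the controls, but siHnrnpd 3 exceeded control 1 by far less than the controls differed among themselves. The log2 value was 0.10 with an SE of 0.063, from means of 200.9 ± 9.19 and 216 ± 2.91 CPM (SD, n = 3 each), and it was not called. The intervals that counting error alone gives overlapped, at 206 to 217 CPM in control 1 and 208 to 218 CPM in siHnrnpd 3 (95% exact Poisson).

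Because Slc20a1 is so much more abundant, a small relative difference in it came to about as much in FPKM as the larger one in Slc20a2. The mean FPKM of Slc20a1 was 4.76 higher in siHnrnpd and that of Slc20a2 4.37 higher. The summed FPKM of both importers was 66.9, 61.5 and 64.3 in controls 1 to 3, against 73.4, 72.3 and 74.4 in siHnrnpd 1 to 3. The groups did not overlap in this sum. Slc20a2 supplied 13.9 ± 0.85% of it in the controls and 18.1 ± 0.76% with the siRNA (SD, n = 3 each), so Slc20a1 was the larger of the 2 in every library. These sums and shares are made from the same contrast and carry no test.

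**Figure D2:**
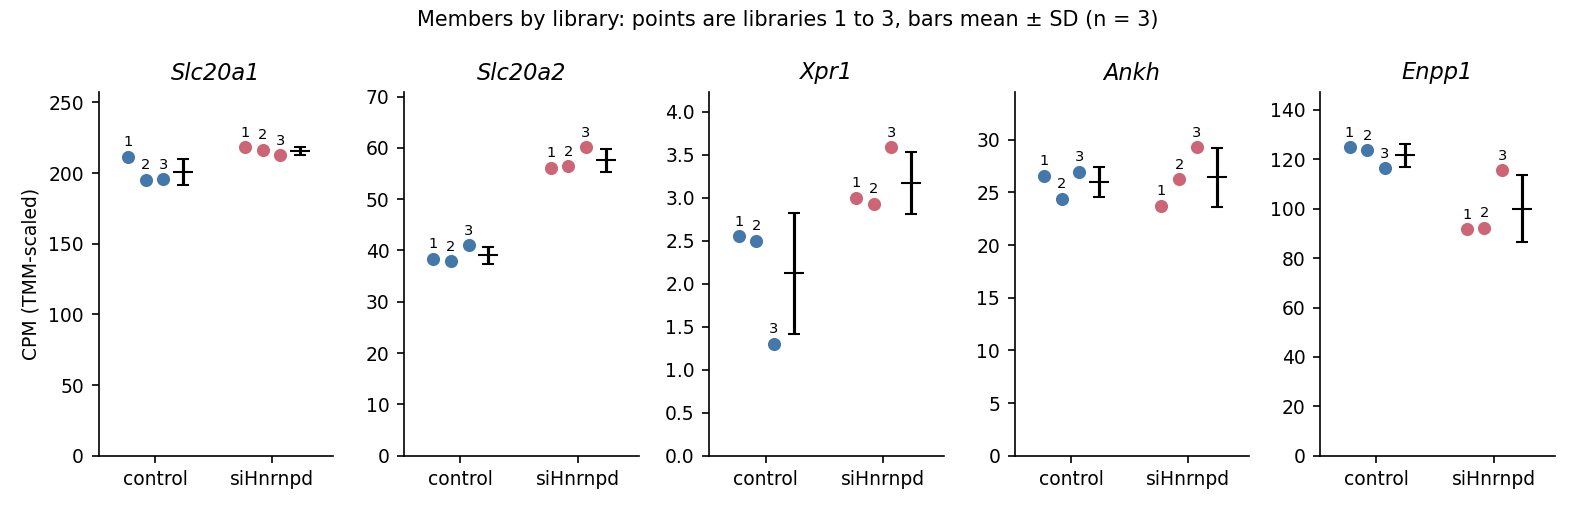
CPM of each member in every library, on axes that start at 0, with the replicate number over each point and the group mean ± SD beside the points. Slc20a2 separates cleanly between 37.9 to 41.0 CPM in control and 56.1 to 60.1 CPM in siHnrnpd, Xpr1 is low with control 3 apart, Ankh overlaps, and in Enpp1 library siHnrnpd 3 sits next to the controls.

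The exporter gene Xpr1 (ENSRNOG00000000042, chromosome 13) was the member with the fewest counts. It had 74, 78 and 47 counts in controls 1 to 3 and 105, 97 and 117 counts in siHnrnpd 1 to 3. In CPM these were 2.55, 2.50 and 1.30 against 3.0, 2.93 and 3.58, so the siHnrnpd libraries were all above the controls. The log2 value of 0.59 was as large as that of Slc20a2, but its SE was 0.24 and it was not called. Counting error alone spanned 2.0 to 3.2 CPM in control 1 and 2.37 to 3.57 CPM in siHnrnpd 2 (95% exact Poisson), which overlap. Control 3 was low: without it the log2 value was 0.33. The SD of log2 CPM within groups was 0.39, and 7.29% of the genes tested had a larger one. In FPKM the importers together exceeded Xpr1 73.3-fold to 143-fold over the controls and 59.1-fold to 72.3-fold over the siHnrnpd libraries, a ratio whose spread in control comes from the low Xpr1 count of control 3.

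Enpp1 and Ankh act on the pyrophosphate side. Enpp1 (ENSRNOG00000013994, chromosome 1), which makes pyrophosphate from ATP, had 125, 124 and 116 CPM in controls 1 to 3 and 91.8, 92.4 and 115.6 CPM in siHnrnpd 1 to 3. Libraries siHnrnpd 1 and 2 lay well below the controls, and siHnrnpd 3 lay just under control 3. In FPKM that last order turned, with 24.74 in siHnrnpd 3 and 24.58 in control 3, so whether the groups overlap depends on the unit. The mean went from 122 ± 4.56 to 99.9 ± 13.6 CPM (SD, n = 3 each), a log2 value of -0.28 with an SE of 0.094 that was not called. Without siHnrnpd 3 it was -0.41.

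Ankh (ENSRNOG00000010960, chromosome 2), the ATP and citrate exporter, showed no direction. It had 26.6, 24.4 and 27.0 CPM in controls 1 to 3 and 23.7, 26.3 and 29.3 CPM in siHnrnpd 1 to 3, and its lowest and highest libraries were both siHnrnpd. The log2 value was 0.024 with an SE of 0.093. It was -0.067 without siHnrnpd 3 and -0.019 without control 2, so even its sign was not fixed. The FPKM ratio of Enpp1 to Ankh was 2.81, 3.04 and 2.58 in controls 1 to 3, against 2.32, 2.11 and 2.37 in siHnrnpd 1 to 3. That ratio was lower in all 3 siHnrnpd libraries, siHnrnpd 3 included, where Enpp1 was near its control level and Ankh was at its highest. Like the importer sums, the ratio is made from the same contrast and carries no test.

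Of the 5 members, 4 did not overlap between the groups in CPM (all but Ankh), against 17.0% of all genes tested, and nothing is read from that count since the same contrast chose them. The members also differed in direction: Slc20a1, Slc20a2 and Xpr1 had positive log2 values, Enpp1 a negative one and Ankh one near 0. Of these only Slc20a2 was called, and nothing is read from the directions either. Over all genes tested 6342 of 12268 were positive, and the median log2 change was 0.0054.

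**Figure D3:**
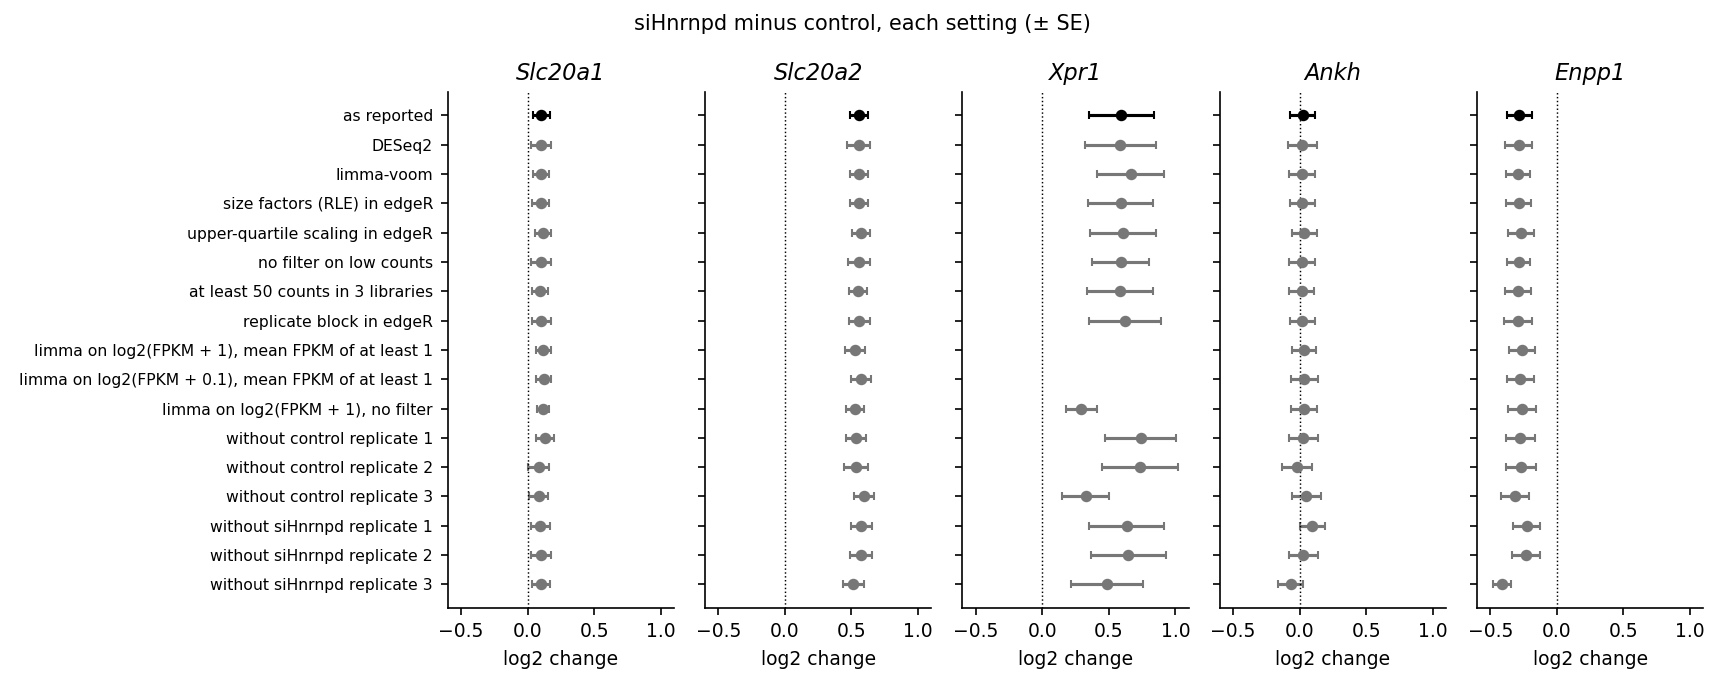
Log2 change of each member, siHnrnpd minus control, with its SE, in the reported fit (black) and in each alternative (grey). Slc20a2 stays between 0.51 and 0.59, Xpr1 moves from 0.29 to 0.74, Enpp1 from -0.41 to -0.23, and Ankh crosses 0.

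The members lie on 5 different chromosomes, and their neighbours were examined in RefSeq gene models of the rat assembly GRCr8, used for gene order only. The model of Slc20a2 overlaps that of Smim19, a small membrane protein gene. As no strand setting of the counting is given, reads in the overlap cannot be assigned with certainty. Smim19 averaged 46.3 ± 2.60 CPM over the controls and 42.7 ± 3.77 CPM with the siRNA (SD, n = 3 each). The log2 value, -0.12, was opposite in sign to that of Slc20a2. Other tested genes nearby had negative values too: Vdac3, a mitochondrial outer membrane channel, -0.088, Mrps31, a mitochondrial ribosomal protein gene, -0.088, and Slc25a15, the mitochondrial ornithine carrier, -0.16. None of these 4 passed (edgeR adjusted p from 0.442 to 0.718). The higher level of Slc20a2 was thus not shared by the tested genes beside it. The same held for Xpr1, whose tested neighbours Mr1, Stx6 and Acbd6 had log2 values of -0.12, 0.048 and 0.030. Beside Slc20a1, by contrast, Chchd5, Polr1b and Ttl had positive values of 0.11, 0.13 and 0.30, no smaller than its own 0.10, and Ckap2l had -0.077. The tested genes around Enpp1, namely Enpp3, Med23 and Stx7 (-0.19), were all negative like Enpp1. None of them passed (edgeR adjusted p of 0.176, 0.541 and 0.649), and 5926 of the 12268 genes tested were negative.

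**Figure D4:**
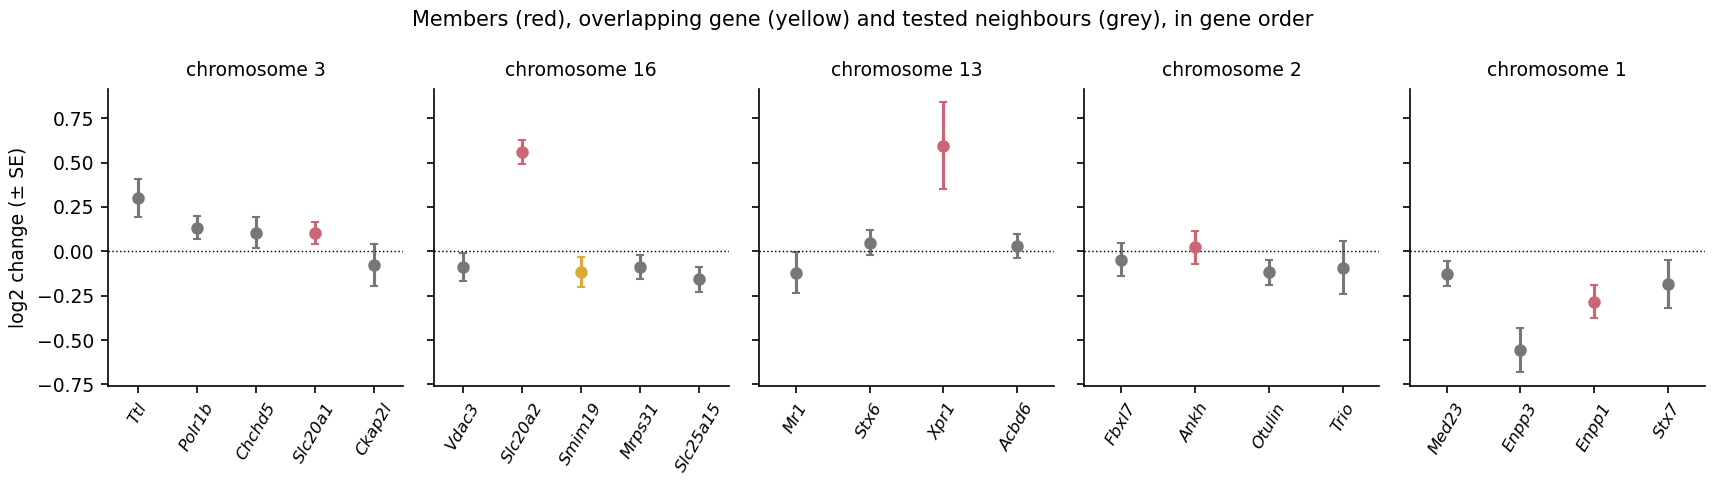
Log2 change with its SE for each member (red), the gene that overlaps Slc20a2 (yellow) and the tested neighbours (grey), in gene order along each chromosome. Slc20a2 and Xpr1 stand above their neighbours, and Enpp3, next to Enpp1, lies lower than Enpp1.

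Next to Enpp1 lies Enpp3, a related ectoenzyme that also splits extracellular nucleotides. It had 125, 116 and 101 CPM in controls 1 to 3 and 87.4, 82.6 and 62.6 CPM in siHnrnpd 1 to 3, with no overlap. The log2 value was -0.56 with an SE of 0.13 and did not pass (edgeR adjusted p = 0.176). DESeq2 called it lower (DESeq2 adjusted p = 0.00145), and so did edgeR without the filter on low counts (edgeR adjusted p = 0.00602). Library siHnrnpd 3 was the lowest for Enpp3 but the highest of its group for Enpp1, while siHnrnpd 1 and 2 lay below all controls in both genes. Med23, a Mediator subunit gene on the far side of Enpp3, had a log2 value of -0.13.

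The rest of phosphate and pyrophosphate handling was followed through 8 lists with 81 genes in all, of which 72 were matched and 50 tested. By edgeR 0 of the 50 were called, against 0.0815% of all genes. At an unadjusted p under 0.05 there were 10, or 20.0%, against 11.0% of all genes tested, and 10, or 20.0%, did not overlap between the groups, against 17.0%. The median log2 change of the 50 was -0.017, with 24 positive and 26 negative, beside 0.0054 over all genes. DESeq2 called 3 of the 50, Enpp3, Mepe and Mgp, all lower, against 1.38% of all genes.

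Among carriers of phosphate inside the cell none was called. Slc25a3, which brings phosphate into mitochondria for ATP synthesis, averaged 496 ± 5.24 CPM over the controls and 462 ± 12.6 CPM with the siRNA (SD, n = 3 each), and its log2 value was -0.10 (edgeR adjusted p = 0.560). The groups did not overlap in Slc25a3, at 491 to 501 CPM in control and 450.2 to 475 CPM in siHnrnpd. Slc25a24, an ATP-Mg/phosphate exchanger of mitochondria, had a log2 value of 0.20, Slc25a10, which exchanges dicarboxylates for phosphate, 0.19, and the sugar phosphate exchanger gene Slc37a2 0.34 at a level of 1.33 ± 0.52 CPM in control. Of 7 tested genes on this list 0 were called, 0 had an unadjusted p under 0.05, and the median was 0.0019. The sodium-phosphate cotransporters of kidney and gut were almost absent from the counts on rat gene models: Slc34a1 and Slc34a3 had at most 1 and 2 counts in any library. Slc17a3, a kidney organic anion and phosphate transporter gene, was the tested member of that list, at 0.94 ± 0.10 CPM in control and 0.54 ± 0.12 CPM in siHnrnpd (edgeR adjusted p = 0.325).

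Inositol pyrophosphates bind the SPX domain of XPR1 and regulate phosphate export, so the genes that make and break them were listed. All 11 matched genes were tested, 0 were called by edgeR or DESeq2, 1 had an unadjusted edgeR p under 0.05, and the median log2 value was -0.018, with 5 positive and 6 negative. Nudt4, which encodes a phosphatase that removes pyrophosphate groups from inositol pyrophosphates, had 142, 134 and 127 CPM in controls 1 to 3 and 116, 119 and 109 CPM in siHnrnpd 1 to 3. The groups did not overlap, but the log2 value of -0.23 did not pass (edgeR adjusted p = 0.322). The inositol kinase genes Itpk1, Ip6k1 and Ippk had log2 values of 0.14, 0.18 and -0.18, with edgeR adjusted p from 0.599 to 0.625.

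Among enzymes that act on extracellular nucleotides and pyrophosphate, several were barely detected. Alpl, which degrades pyrophosphate, had 5, 5 and 2 counts in controls 1 to 3, against 20, 15 and 8 in siHnrnpd 1 to 3, under the filter, and is named for its role. The siHnrnpd libraries all held more. Without the filter on low counts the log2 value of Alpl was 1.72 with an SE of 0.55 and did not pass (edgeR adjusted p = 0.205). Nt5e, which turns AMP into adenosine, and Abcc6, whose product drives ATP release in the liver, had at most 1 and 4 counts in any library. Besides Enpp3, those expressed above 1 CPM were the adenosine transporter gene Slc29a1, at 191 ± 13.5 CPM in control, the nucleotidase genes Entpd4 and Entpd5, and Ada, which encodes adenosine deaminase. Slc29a1, Entpd4 and Entpd5 had log2 values of 0.059, -0.17 and -0.030. Of 6 tested genes on this list edgeR called 0, with 2 at an unadjusted p under 0.05, and DESeq2 called Enpp3. The median was -0.023.

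Phospho1, which encodes a phosphatase that frees phosphate inside matrix vesicles of mineralizing cells, had 28.7, 32.2 and 33.8 CPM in controls 1 to 3 and 46.4, 36.7 and 35.7 CPM in siHnrnpd 1 to 3. The siHnrnpd libraries were all higher, but siHnrnpd 1 was far above the other two, and the log2 value of 0.33 did not pass (edgeR adjusted p = 0.338). Of the 4 tested genes on that list edgeR and DESeq2 called 0, and 1 had an unadjusted edgeR p under 0.05. The mitochondrial pyrophosphatase gene Ppa2 and the phosphatase genes Lhpp and Phospho2 had log2 values of -0.13, -0.14 and -0.12.

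Genes of mineral and of systemic phosphate control ranged widely in level. Spp1, which encodes the mineral-binding protein osteopontin, stood at 2393 ± 129 CPM in control and Sparc, another bone matrix protein gene, at 1962 ± 32.2 CPM. Both are named for their level, and their log2 values were 0.018 and -0.046. Mepe, a phosphate-regulating matrix protein gene of osteocytes, had 251, 264 and 254 CPM in controls 1 to 3 and 209, 180 and 218 CPM in siHnrnpd 1 to 3. All 3 siHnrnpd libraries were lower, and the log2 value of -0.34 missed the threshold (edgeR adjusted p = 0.201), while DESeq2 called it lower (DESeq2 adjusted p = 0.0157). The related gene Dmp1, named for its role, stood at 78.7 ± 4.40 and 79.3 ± 5.59 CPM.

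Mgp, which encodes an inhibitor of calcification, had 78.0, 85.3 and 87.0 CPM in controls 1 to 3 and 72.4, 52.4 and 66.5 CPM in siHnrnpd 1 to 3. The log2 value was -0.39 (edgeR adjusted p = 0.288, DESeq2 adjusted p = 0.0483). Ibsp, the bone sialoprotein gene, was under 1 CPM in both groups, at 0.78 ± 0.22 and 0.38 ± 0.21 CPM. The bone regulators Bmp4 and Runx2 had log2 values of 0.25 and 0.099. For Bmp4 that value rested on siHnrnpd 3, at 186 CPM against 117 and 120 CPM in siHnrnpd 1 and 2 and 113 to 124 CPM in the controls, and without it the log2 value was -0.013. For the receptor gene Fgfr1 the log2 value was 0.17 (edgeR adjusted p = 0.443), the kinase gene Fam20c -0.052, and Cyp27b1, which encodes the enzyme that activates vitamin D, stood at 0.75 ± 0.23 and 0.48 ± 0.19 CPM. Kl, the co-receptor through which FGF23 signals, had at most 1 count in any library. Medians were -0.020 over 8 tested genes of systemic control and 0.018 over 9 mineralization regulators, and edgeR called 0 of either, where 2 of each had an unadjusted p under 0.05.

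Besides Slc20a2 and Xpr1, other genes known from familial brain calcification were listed. Cmpk2, a mitochondrial nucleotide kinase gene that interferon also induces, had 88.6, 116 and 94.6 CPM in controls 1 to 3 and 53.4, 59.2 and 22.3 CPM in siHnrnpd 1 to 3. All 3 siHnrnpd libraries were lower and siHnrnpd 3 was the lowest by far, and the log2 value of -1.15 missed the threshold (edgeR adjusted p = 0.216). Without the filter on low counts edgeR called Cmpk2 lower (edgeR adjusted p = 0.00301). Within its group, library siHnrnpd 3 was thus apart as the lowest in Cmpk2 and Enpp3 and as the highest in Enpp1 and Bmp4. These genes were singled out after their values were seen. Over all genes tested, siHnrnpd 3 was the highest or lowest library in 37.0%. Control 1 was so in 49.0%, siHnrnpd 1 in 43.1%, and the remaining libraries in 21.7% to 27.1%. For Slc20a2, siHnrnpd 3 was the highest library, at 60.1 CPM, and without it the log2 change was 0.51. Pdgfrb, the receptor gene of the same disease group, had 224 ± 15.4 CPM in control and a log2 value of 0.095. Naa60, an acetyltransferase gene, had 0.035, and Myorg, a glycosidase gene listed under an older symbol, had 0.37 at 0.32 ± 0.13 CPM. Of 4 tested genes 0 were called by edgeR with the filter or by DESeq2, and 1 had an unadjusted edgeR p under 0.05.

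**Figure D5:**
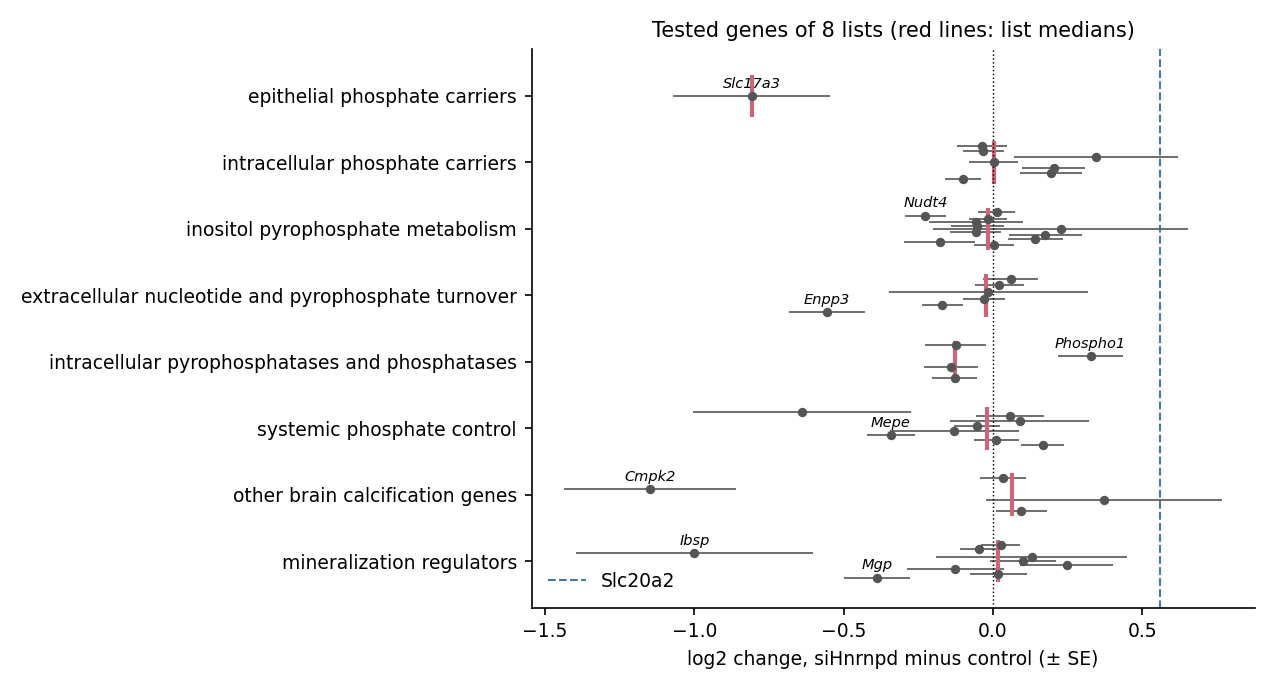
Log2 change, siHnrnpd minus control, with its SE for each tested gene of the 8 lists, with the list median in red and Slc20a2 as a dashed line. Medians of the lists with over 1 tested gene lie between -0.13 and 0.065, and no tested gene of the lists reaches the value of Slc20a2 on the positive side.

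Among 8662 genes considered, those whose level followed Slc20a2 most closely over the 6 libraries were Hspa14, Scrn1, Lipt2, Syde1 and Tmem17. Their Pearson r of log2 CPM ran from 0.984 to 0.992, and Spearman's rank correlation was 0.886 to 1 for these 5. The genes considered had a mean of 5 CPM or more and a symbol. Left out were the members and symbols that begin with LOC, RGD, AABR or AC plus a digit. Of the 8662 genes 164, or 1.89%, had r over 0.9. Slc20a2 was chosen by the contrast between the groups of these same libraries. A high r may therefore largely repeat that contrast, and nothing is read from it. Hspa14, a ribosome-associated chaperone gene, went only from 88.3 ± 1.35 to 95.1 ± 0.87 CPM, or 0.11 on the log2 scale (edgeR adjusted p = 0.540). Syde1 had a log2 change of 0.68 and was called (edgeR adjusted p = 0.0445). Lipt2, a lipoate transferase gene, had 0.57 (edgeR adjusted p = 0.122). Genes with nearly the same r thus differed widely in the size of their change.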

How the data were processed

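RNA was measured in 6 HEI-OC1 libraries, 3 per group. Per the submitters' processing notes, reads were aligned with TopHat2 and the build was mRatBN7.2; how reads were counted, with which annotation and strand setting, is not given in the sources used here. The deposited count table holds raw read counts per gene in whole numbers, and the deposited FPKM table holds the authors' length-scaled values for 18628 genes. The siHNRNPD columns were matched to samples by siRNA name and replicate number. The siCtrl columns were matched to the SiNC samples through their genotype label, Control, and the replicate number.

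The test was edgeR 4.0.16 under R 4.3.3 (TMM scaling, filterByExpr, quasi-likelihood fit, group as the only term, Benjamini-Hochberg adjustment over 12268 genes). CPM uses TMM-scaled totals. Intervals are 95% exact Poisson and cover counting error only. Alternatives used DESeq2 1.42.0 and limma 3.58.1, other scalings and filters, a replicate block, FPKM, and leaving out each library. The tests were checked on simulated counts. No 2 of the libraries agreed within sampling noise over the 15 pairs.

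The members, lists and tests were chosen with earlier results of these data known. Named genes were the members, Hnrnpd, called genes or else the 4 smallest p of each list, and the 5 genes most like Slc20a2. Neighbouring genes, and genes named for a role, level or absence, were added after their values were seen. Listed genes were matched by symbol, 1 pathway gene (Myorg) through a RefSeq synonym, and 9 were unmatched. No sequences are printed.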

Additional observations from a re-analysis of the deposited data

How the results depend on the processing

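Against 10 genes called by edgeR, DESeq2 called 169, edgeR without a filter on low counts 147, upper-quartile scaling 6, the replicate block 0 (1062 at an unadjusted p under 0.05), limma on log2(FPKM + 1) 0 with or without the FPKM minimum (1157 and 1604), and limma on log2(FPKM + 0.1) 5. Leaving out 1 library gave 0 to 14 genes, with 724 to 1919 at an unadjusted p under 0.05. Slc20a2 lost its call, with its direction kept, under the replicate block (log2 change 0.56), on log2(FPKM + 1) with or without the minimum (0.53) and on log2(FPKM + 0.1) (0.57), and without each library in turn (0.51 to 0.59). Same-numbered libraries gave correlations of their deviations from the group means of -0.26, 0.14 and 0.10. Differently numbered libraries were not compared, so these values cannot decide whether the numbers pair the samples. DESeq2 called 1 gene each among extracellular nucleotide and pyrophosphate turnover, systemic phosphate control and mineralization regulators, and edgeR without a filter called 1 each in the first 2 of these and among other brain calcification genes (Cmpk2), or 3 of 72 listed genes against 0.785% of all genes at that setting. The causes were not tested. Xpr1 gave no value on log2(FPKM + 1) or log2(FPKM + 0.1) with the minimum, its mean FPKM being under 1. No setting moved the median of all genes beyond -0.0100 to 0.019. Xpr1 had 47 to 117 counts a library, the fewest of the members; the counting intervals of control 3 (0.96 to 1.73 CPM) and control 1 (2.0 to 3.2 CPM) did not overlap, so its spread exceeded counting error.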
